A study of Mus musculus with 8 samples.

Results

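CD4 and CD8 T cells were compared within the 2 stimulated WT libraries of a single-cell RNA-seq study of mouse splenic T cells. The cells were those that the authors' cluster annotation places in a CD4 or a CD8 class, 3504 of the 12846 cells of the series. Stimulated WT library 1 held 859 cells of the CD4 class and 844 of the CD8 class, and library 2 held 967 and 834. WT T cells were isolated from spleens of 8- to 12-week-old mice by magnetic pan T cell selection and cultured for 48 hours with soluble antibodies, 5 μg/mL against CD3ε and 2.5 μg/mL against CD28. Unstimulated WT cells, also 2 libraries, came from the same selection, were cultured without antibodies, and held 1884 cells of the CD4 class and 1019 of the CD8 class. The SDHA-KO libraries, made from Sdha fl/fl CD4-Cre mice, enter an alternative fit only. CD4 and CD8 cells of a library shared 1 culture, so neither class was stimulated alone, dead cells were removed by a kit before capture, and the records do not say whether the 2 libraries of a group came from different mice.

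CD4+ T cells recognise peptides on MHC class II and are known as helper cells, which act through surface ligands such as CD40L and through secreted cytokines such as IL-2. CD8+ T cells recognise peptides on MHC class I and kill target cells with perforin, which opens the target membrane, and granzymes, proteases that then enter the target. In the thymus the transcription factor ThPOK, encoded by Zbtb7b, maintains the CD4 fate, and RUNX3 silences Cd4 and sustains Cd8 expression and the cytotoxic program.

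UMIs, the tags that count captured mRNA molecules, were summed per library and class and scaled for depth to CPM. In such sums fewer expressing cells and less RNA per cell cannot be told apart. The 4 sums held 20917753 to 29087409 UMIs. Within each class the 2 libraries were further apart than counting error allows (chi-square over its degrees of freedom, 7.43 for CD4 and 10.1 for CD8), and they shared 1 cell barcode. The smallest two-sided p of an exact permutation test of 2 values against 2 is 0.33, so the tests below rest on the edgeR fit across genes, with the library as a block and 1 residual degree of freedom, and measure only the spread between these 2 libraries.

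The class labels held for most cells but not for all. Cd4, the coreceptor for MHC class II, had 99.5 and 105 CPM in the CD4 class and 4.85 and 5.28 CPM in the CD8 class. Cd8a, a chain of the CD8 coreceptor, had 10.5 and 13.8 CPM in the CD4 class and 166 and 179.8 CPM in the CD8 class, and its partner chain Cd8b1 had 23.1 and 30.4 CPM in the CD4 class and 283 and 314 CPM in the CD8 class. Counted per cell, 57.5% of the 1826 cells of the CD4 class carried UMIs of Cd4 alone, 8.05% (147 cells) of Cd8a or Cd8b1 alone, 23.5% of both, and 10.9% of neither. In the CD8 class, 88.2% of the 1678 cells carried UMIs of Cd8a or Cd8b1 alone, 1.61% (27 cells) of Cd4 alone, 3.99% of both, and 6.20% of neither. The cells of the CD4 class with UMIs of both were deep, at a median of 33341 UMIs, whereas those with Cd4 alone had 14664. Doublets were not called here, and their part in these cells was not tested.

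Because the classes are clusters drawn from the expression of all genes, each difference was also taken between cells chosen on the 3 coreceptor genes only: 1077 cells of any cluster with a Cd4 UMI and no Cd8a or Cd8b1 UMI (CD4-only) and 1627 cells with a Cd8a or Cd8b1 UMI and no Cd4 UMI (CD8-only). Tests are quoted from these cells, and the values of the classes are given as a description beside them. Fold changes are log2, CD8 minus CD4. The value after ± is the absolute fold change divided by the square root of the F of edgeR's quasi-likelihood test. It was computed from that test and is no standard error that the fit returns. Where one side holds few UMIs it can fall below counting error. Prf1, with 21 and 33 UMIs in the CD4-only cells of libraries 1 and 2, is such a case.

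Of 13589 genes tested between CD8-only and CD4-only cells, 1481 (10.9%) were higher in CD8-only cells and 1648 (12.1%) were higher in CD4-only cells at a Benjamini-Hochberg adjusted p under 0.05 in edgeR's quasi-likelihood test, the 3 coreceptor genes included. The class sums gave 1949 genes higher in the CD8 class (13.9% of 14011) and 2105 higher in the CD4 class (15%), and the median difference over all genes was 0.0040. Among the 13565 genes tested in both fits, 1348 (9.94%) were higher in CD8 and 1514 (11.2%) higher in CD4 in both, and 0 genes were called in opposite directions. These made up 71.4% of the class calls and 91.5% of the coreceptor calls. The 2 fits share most of their cells, so this agreement is no independent check. Of the 1077 CD4-only cells 1050 belong to the CD4 class, and of the 1627 CD8-only cells 1480 belong to the CD8 class. Most differences were small: 753 of the 4054 genes called between the classes reached a 2-fold change, 380 higher in the CD8 class and 373 higher in the CD4 class. DESeq2 called 1019 genes between the coreceptor-only cells, and leaving the library block out of edgeR left 1833. Counts of gene list members below stand against the shares of all genes, 10.9% higher and 12.1% lower in CD8-only cells.

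**Figure D1:**
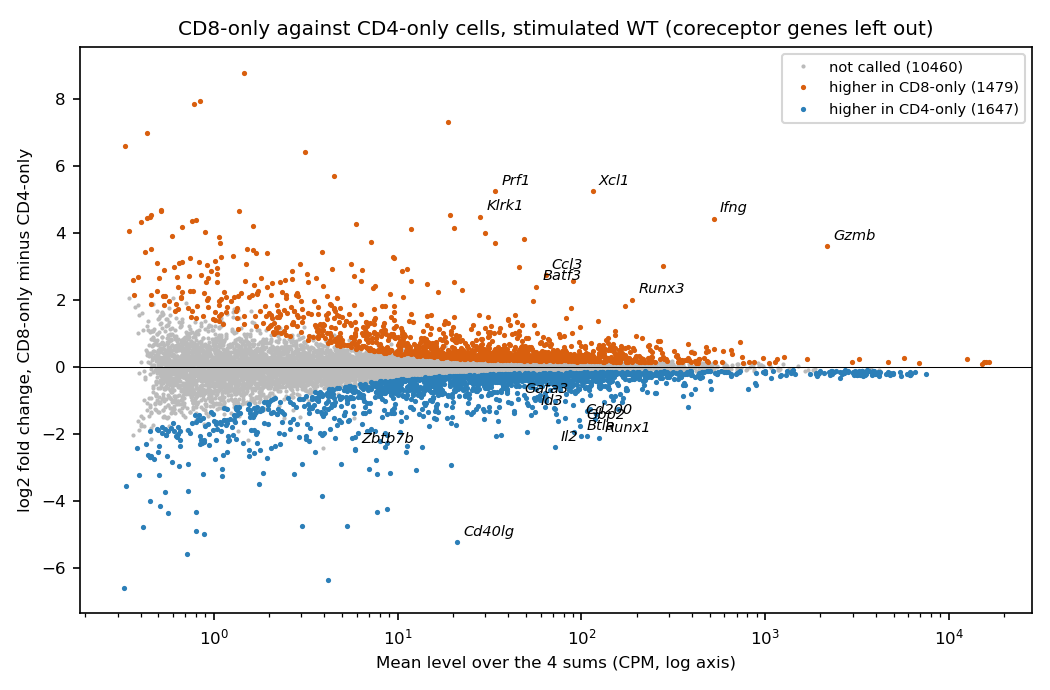
Each point is a gene tested between CD8-only and CD4-only cells of the 2 stimulated WT libraries, with its mean level over the 4 sums (CPM, log axis) on the x axis and the log2 fold change on the y axis. Orange and blue points are called higher in CD8-only and CD4-only cells, and the coreceptor genes are left out. Ifng and Gzmb lie far to the upper right, Xcl1 and Prf1 above 5 on the y axis, and Cd40lg lies below -5.

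Effector genes of cytotoxic cells were among the largest rises. Ifng encodes IFN-γ, the main type 1 cytokine, and had 876 and 1409 CPM in the CD8 class against 35.9 and 54.7 in the CD4 class. Xcl1, a chemokine that attracts cross-presenting dendritic cells, had 241 and 209 CPM in the CD8 class against 12.7 and 8.68 in the CD4 class. Both CD8 sums lay above both CD4 sums, which the choice of the 12 genes with the largest rise required. Between coreceptor-only cells the log2 fold change was 4.43 ± 0.18 (adjusted p = 1.28e-06) for Ifng and 5.25 ± 0.075 (adjusted p = 4.31e-09) for Xcl1. The same chemokine group included Ccl3, which recruits inflammatory cells, with 127 and 109 CPM in the CD8 class against 25.1 and 9.96 in the CD4 class, and a coreceptor-only difference of 2.75 ± 0.087 (adjusted p = 2.74e-07).

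Of the 19 tested type 1 cytokines, chemokine ligands, and their receptors, 12 were higher and 4 lower in CD8-only cells, with a median log2 fold change of 1.13 against -0.00012 over all genes. Ifngr2, a chain of the IFN-γ receptor, was among the 4 that were lower, at -0.40 ± 0.078 (adjusted p = 0.00662). The most abundant member that was not called was Ltb, which encodes lymphotoxin β, with a class difference of 0.023 ± 0.041. Ifngr1, the ligand-binding chain of the same receptor, went the other way at 1.26 ± 0.070 (adjusted p = 7.41e-06), and Tnf was lower in CD8-only cells at -0.24 ± 0.064 (adjusted p = 0.0267); these 2 genes were chosen after their values were seen.

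Few cells carried most of the Ifng. With every cell thinned to 5000 UMIs, 39.7% and 42.4% of the CD8 class of libraries 1 and 2 had an Ifng UMI, against 16.2% and 16.2% of the CD4 class. Without thinning the shares were 60.5% and 66.7% against 39.7% and 43.8%. The top 10% of CD8 class cells held 90.3% and 91.5% of the thinned Ifng UMIs of that class. Gzmb was spread more evenly, with 98.7% and 99.5% of thinned CD8 class cells carrying a UMI and the top 10% of cells holding 29.5% and 29.3% of the UMIs. As a gauge of free or misassigned RNA, a Cd4 UMI was found in 2.38% and 3.13% of thinned CD8 class cells and a Cd8a UMI in 4.88% and 6.12% and a Cd8b1 UMI in 10.3% and 11.7% of thinned CD4 class cells. No cell type known to lack Ifng or Gzmb was available in these libraries for the same gauge.

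Granule genes were higher in CD8 cells as a group, though not in every member. Gzmb, the granzyme that starts apoptosis in targets, had 3649.6 and 4595 CPM in the CD8 class against 351 and 509 in the CD4 class. Prf1, perforin, had 57.0 and 88.9 CPM in the CD8 class against 3.05 and 3.88 in the CD4 class. The coreceptor-only differences were 3.60 ± 0.042 (adjusted p = 1.63e-09) and 5.25 ± 0.10 (adjusted p = 2.23e-08). Ctsw, a cathepsin of cytotoxic lymphocytes, had 57.3 and 66.4 CPM in the CD8 class against 7.78 and 10.2 in the CD4 class and a coreceptor-only difference of 3.70 ± 0.085 (adjusted p = 4.98e-08).

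Of 22 tested granule genes, 12 were higher and 2 lower in CD8-only cells, with a median of 0.47. The 2 lower ones were Srgn, the proteoglycan that packs granzymes, at -0.33 ± 0.040 (adjusted p = 0.000622), though with a class difference of 0.040 in cells from 10% mitochondrial UMIs upward, and Stxbp2, a factor of granule fusion, at -0.28 ± 0.078 (adjusted p = 0.0351). Stx11, the syntaxin that works with Stxbp2, was the most abundant member not called, at -0.18 ± 0.10. Gzma and Nkg7, chosen after their values were seen, had coreceptor-only differences of 3.72 ± 0.47 (adjusted p = 0.000806) and 3.02 ± 0.066 (adjusted p = 4.15e-08). In the CD4 class 60.2% and 70.1% of thinned cells had a Gzmb UMI, at a mean of 2.16 and 2.88 UMIs per cell against 20.8 and 25.1 in the CD8 class. Cd8b1, which free RNA or misassigned CD8 cells would bring, stood at 0.152 and 0.163 in the CD4 class against 1.77 and 2.07 in the CD8 class. Among thinned CD4-only cells, chosen without a Cd8a or Cd8b1 UMI, 59.0% and 68.3% had a Gzmb UMI. Their mean was 1.87 and 2.60 UMIs per cell, against 20.2 and 24.1 in CD8-only cells. How much of the Gzmb belongs to CD4 cells was not tested.

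**Figure D2:**
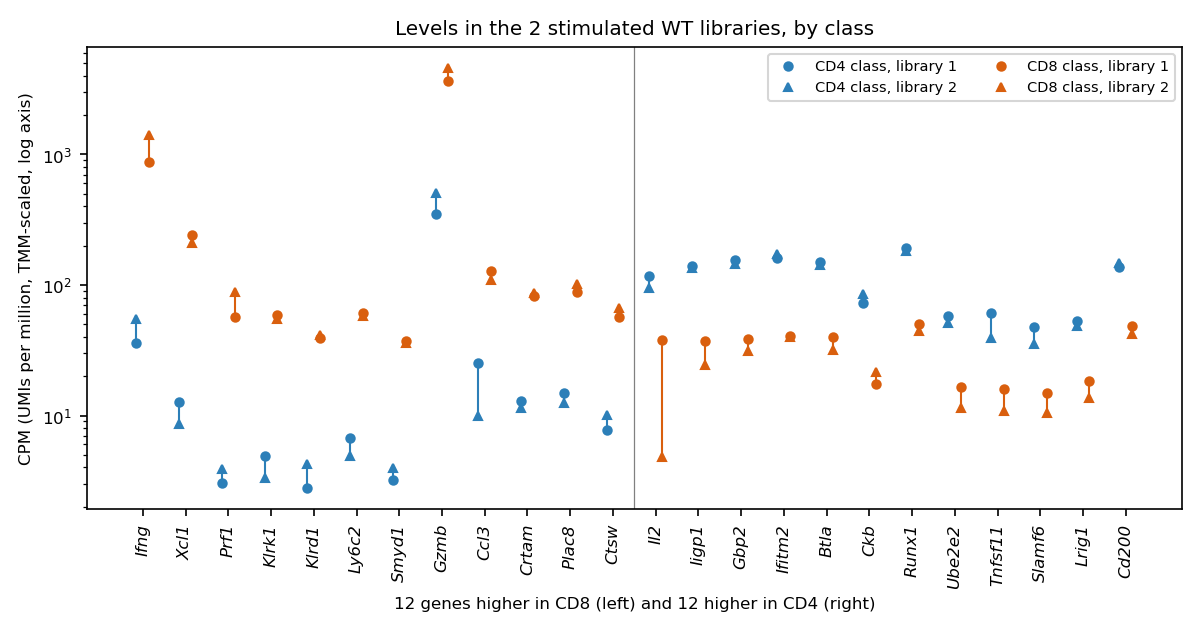
Level (CPM, log axis) of the 12 genes with the largest rise and the 12 with the largest fall in CD8 against CD4, in the CD4 class (blue) and the CD8 class (orange) of library 1 (circles) and library 2 (triangles). The 2 CD8 values lie on one side of the 2 CD4 values in each gene, which the choice of genes required, and the 2 CD8 values of Il2 lie farthest apart.

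NK-type receptors, which many cytotoxic lymphocytes share with NK cells, were higher in CD8-only cells in 8 of 10 tested members and lower in 0, with a median of 4.02. Klrk1, which encodes the activating receptor NKG2D, had 58.7 and 54.6 CPM in the CD8 class against 4.93 and 3.34 in the CD4 class, and Klrd1, which encodes CD94, had 39.0 and 41.1 CPM in the CD8 class against 2.77 and 4.23 in the CD4 class. Their coreceptor-only differences were 4.49 ± 0.11 (adjusted p = 6.46e-08) and 4.15 ± 0.11 (adjusted p = 8.21e-08). The NK cell markers Ncr1, Klrb1c, Tyrobp, and Fcer1g summed to 0.435 and 0.447 CPM in the CD4 class and 1.48 and 0.986 CPM in the CD8 class, and Ncr1 was at 0. Markers of γδ T cells summed to 4.90 and 4.85 CPM in the CD4 class and 17.6 and 20.6 CPM in the CD8 class; their part in the receptor levels was not tested.

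Other genes among the 12 largest rises were Crtam, an adhesion receptor of activated cytotoxic cells, Ly6c2, a surface antigen of memory CD8+ cells, Plac8, and Smyd1, a muscle histone methyltransferase. Crtam had 82.8 and 87.1 CPM in the CD8 class against 12.9 and 11.4 in the CD4 class, and its coreceptor-only difference was 2.99 ± 0.075 (adjusted p = 6.46e-08). Ly6c2 had 60.5 and 58.4 CPM in the CD8 class against 6.69 and 4.91 in the CD4 class, and Plac8 had 88.3 and 101 CPM in the CD8 class against 14.9 and 12.5 in the CD4 class. Smyd1 had 37.0 and 36.0 CPM in the CD8 class against 3.21 and 3.98 in the CD4 class. The last 3 had coreceptor-only differences of 4.001, 3.82, and 4.53.

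The start sites of the most CD8-high genes were read for the core letters bound by RUNX factors, because Runx3 was itself higher in CD8 cells. The RefSeq promoter table (GRCm38.p6, 250 bases before to 50 after the start site) holds 9 of the 12 genes with the largest rise, and 8 of them contain TGTGGT or, on the other strand, ACCACA: Ccl3, Gzmb, Klrk1, Ly6c2, Plac8, Prf1, Smyd1, and Xcl1. The same letters occur in 16.8% of all 32851 promoters of the table and in 3 of the 11 matched genes with the largest fall. Over the whole sets called in both fits the shares were 19.0% of 1029 matched genes higher in CD8 and 15.6% of 1191 higher in CD4. The 12 genes were chosen for their fold change, so these counts carry no test, and a match does not show a bound site. The promoters of Prf1 (chr10:61297586-61297885, plus strand), Gzmb (chr14:56262285-56262584, minus strand), and Xcl1 (chr1:164935473-164935772, minus strand) are shown 5′ to 3′ on the gene's strand, with the matched letters in capitals:
Prf1: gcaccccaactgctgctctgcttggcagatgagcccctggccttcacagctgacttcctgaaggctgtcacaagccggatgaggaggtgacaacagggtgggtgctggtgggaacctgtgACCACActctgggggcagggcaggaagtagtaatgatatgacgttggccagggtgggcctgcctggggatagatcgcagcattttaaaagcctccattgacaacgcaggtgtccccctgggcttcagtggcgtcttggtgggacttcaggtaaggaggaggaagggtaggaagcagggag
Gzmb: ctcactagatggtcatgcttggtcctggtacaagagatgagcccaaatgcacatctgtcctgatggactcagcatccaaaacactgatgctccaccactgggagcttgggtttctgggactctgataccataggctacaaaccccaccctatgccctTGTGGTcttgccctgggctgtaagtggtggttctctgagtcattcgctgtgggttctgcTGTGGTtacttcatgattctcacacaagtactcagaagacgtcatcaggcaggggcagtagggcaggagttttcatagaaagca
Xcl1: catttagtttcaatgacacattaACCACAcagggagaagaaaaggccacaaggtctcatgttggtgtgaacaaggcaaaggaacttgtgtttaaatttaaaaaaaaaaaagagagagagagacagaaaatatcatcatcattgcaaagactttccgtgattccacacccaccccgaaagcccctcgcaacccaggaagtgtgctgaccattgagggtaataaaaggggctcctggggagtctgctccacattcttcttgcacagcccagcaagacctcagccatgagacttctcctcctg
Gzmb holds 2 matches, which begin 93 and 34 bases before the start site, and Prf1 and Xcl1 hold 1 each, which begins 130 and 227 bases before it.

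Named genes of the helper program were lower in CD8 cells. Cd40lg, the ligand by which helper cells activate B cells and dendritic cells, had 40.8 and 32.1 CPM in the CD4 class and 0.693 and 1.38 CPM in the CD8 class. It was close to 0 in both CD8 sums, with 15 and 31 UMIs, and the coreceptor-only difference was -5.24 ± 0.13 (adjusted p = 6.46e-08). Zbtb7b had 9.94 and 9.96 CPM in the CD4 class and 1.76 and 1.95 CPM in the CD8 class, and a coreceptor-only difference of -2.47 ± 0.20 (adjusted p = 5.71e-05). Tnfsf11, which encodes RANKL, had 60.8 and 39.0 CPM in the CD4 class and 16.1 and 10.8 CPM in the CD8 class, and its difference was -2.05 ± 0.069 (adjusted p = 4.1e-07).

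Il2, the growth factor of activated T cells, had 117 and 95.6 CPM in the CD4 class and 37.6 and 4.79 CPM in the CD8 class. The CD8 libraries differed from each other because a single CD8-only cell of library 1 held 711 of the 814 Il2 UMIs of its class. With that cell the log2 fold change was -2.51 ± 0.39 between the classes and -2.39 ± 0.46 between coreceptor-only cells (adjusted p = 0.00682). Without it, an alternative chosen after seeing the data, the CD8 class stood at 4.76 and 4.79 CPM and the fold changes were -4.47 ± 0.083 and -3.69 ± 0.20. In the CD4 class the fewest cells that together held 50% of the Il2 UMIs were 14 of 859 in library 1 and 10 of 967 in library 2. Of 14 tested helper cytokines, 2 were higher and 6 lower in CD8-only cells, with a median of -0.27, and Tgfb1 was the most abundant member not called, at -0.058 ± 0.053.

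Among transcription factors of the coreceptor choice, Runx3 had 296 and 315 CPM in the CD8 class against 84.9 and 101 in the CD4 class, and Runx1, its relative, had 50.0 and 44.3 CPM in the CD8 class against 193 and 182 in the CD4 class. The 2 factors thus differed in opposite directions, by 2.01 ± 0.051 (adjusted p = 6.46e-08) and -2.12 ± 0.055 (adjusted p = 7.83e-08) between coreceptor-only cells. Gata3, which drives type 2 helper genes and supports the CD4 fate, had 29.6 and 37.7 CPM in the CD8 class against 51.9 and 61.4 in the CD4 class. Its difference was -0.96 ± 0.063 (adjusted p = 1.93e-05), and Tox, a factor needed for CD4 lineage development, was also called lower, with a class difference of -1.06 ± 0.056. Themis, a regulator of TCR signals in thymocytes, was higher at 0.51 ± 0.035 (adjusted p = 2.47e-05), and Satb1, a chromatin organiser, was not called at 0.022 ± 0.042. Of the 14 tested members of this list, the coreceptor genes left out, 4 were higher and 7 lower in CD8-only cells.

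The T-box factors of effector cells did not move together. Eomes, which sustains memory CD8+ cells, had 15.6 and 20.2 CPM in the CD8 class against 5.37 and 3.77 in the CD4 class, a coreceptor-only difference of 2.08 ± 0.26 (adjusted p = 0.000747). Tbx21, which encodes T-bet and activates Ifng, had 37.6 and 31.9 CPM in the CD8 class against 44.4 and 41.6 in the CD4 class. T-bet mRNA was therefore slightly lower in the CD8 class, at -0.31 ± 0.093 between coreceptor-only cells (adjusted p = 0.0448). Of 25 tested effector lineage factors, 7 were higher and 11 lower in CD8-only cells, with a median of -0.30. Batf3, an AP-1 factor, had 98.5 and 108 CPM in the CD8 class against 15.03 and 18.7 in the CD4 class, and Zeb2, a repressor active in terminal effectors, was at 0.90 ± 0.062 (adjusted p = 2.55e-05). Id3, which restrains E proteins in less differentiated cells, and Irf8 were lower at -1.33 ± 0.067 (adjusted p = 4.34e-06) and -0.86 ± 0.043 (adjusted p = 4.14e-06).

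Costimulatory and inhibitory receptors split between the classes. Of 22 tested costimulatory genes, 6 were higher and 9 lower in CD8-only cells, and of 17 inhibitory receptors, 5 were higher and 5 lower. Btla, an inhibitory receptor for HVEM, had 40.1 and 31.7 CPM in the CD8 class against 151 and 141 in the CD4 class, and Cd200 had 48.5 and 42.2 CPM in the CD8 class against 138 and 146 in the CD4 class. Cd160, another HVEM receptor, went the other way, with 36.1 and 33.8 CPM in the CD8 class against 7.46 and 5.80 in the CD4 class. The coreceptor-only differences of these 3 genes were -2.07, -1.59, and 2.53. Lag3, a receptor for MHC class II, was higher at 0.85 ± 0.069 (adjusted p = 6.43e-05). Slamf6 and Cd5, which tunes TCR signals down, were lower at -1.56 ± 0.070 (adjusted p = 2.45e-06) and -1.26 ± 0.048 (adjusted p = 1.02e-06), and Tnfrsf9, the receptor 4-1BB, was higher at 0.39 ± 0.047 (adjusted p = 0.000623).

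**Figure D3:**
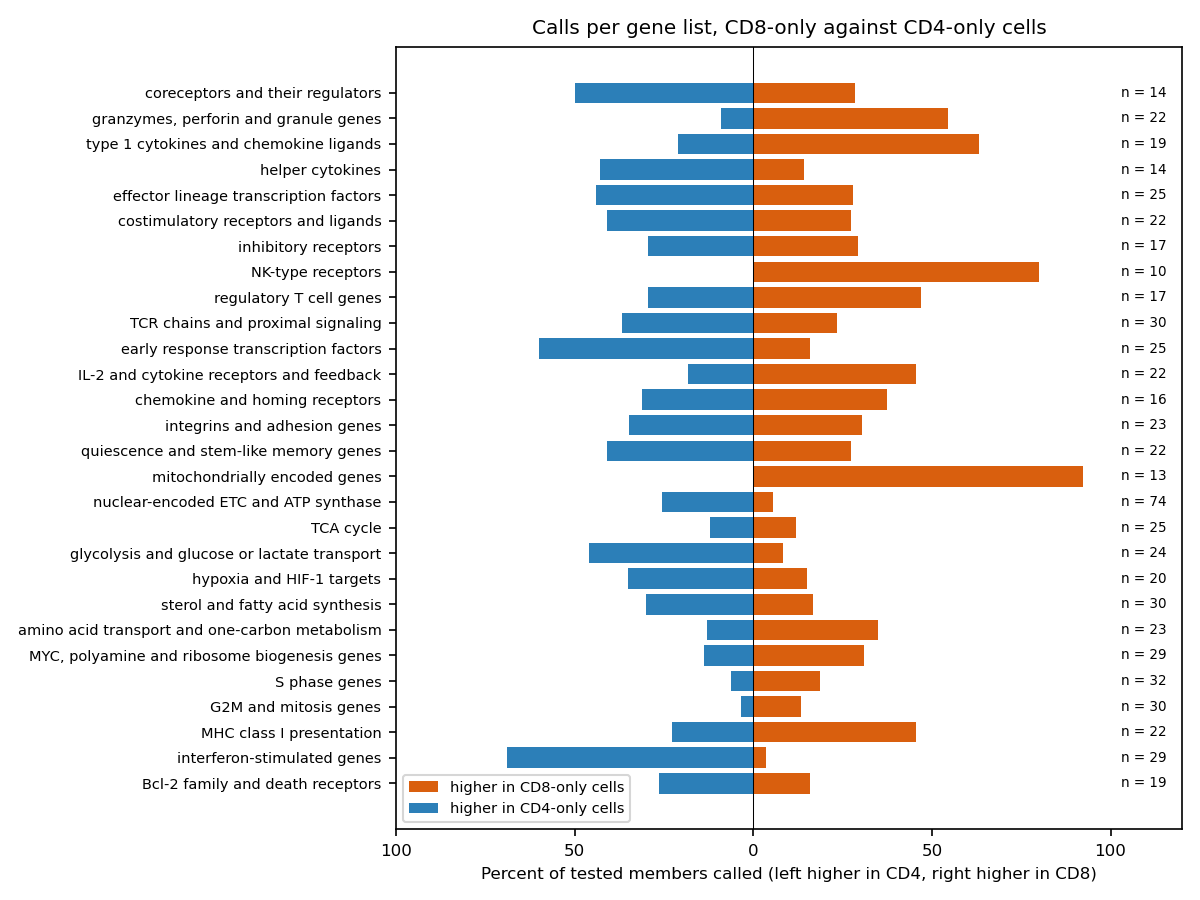
For each gene list, the bars give the percentage of tested members (n at the right) called higher in CD8-only cells (orange, to the right) or in CD4-only cells (blue, to the left) in the 2 stimulated WT libraries. NK-type receptors and mitochondrially encoded genes have no bar to the left, and interferon-stimulated genes have the longest one.

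Interferon-stimulated genes were lower in CD8 cells, although Ifng itself was higher there. Of 29 tested, 20 were lower and 1 higher in CD8-only cells, with a median of -0.65. Iigp1, an interferon-induced GTPase that attacks the vacuoles of intracellular parasites, had 37.6 and 24.4 CPM in the CD8 class against 139.6 and 135 in the CD4 class. Gbp2, a guanylate-binding protein of the same defence, had 38.6 and 31.4 CPM in the CD8 class against 156 and 146 in the CD4 class. The coreceptor-only differences were -1.95 ± 0.10 (adjusted p = 5.27e-06) and -1.75 ± 0.10 (adjusted p = 7.8e-06). Bst2, tetherin, was the 1 member that was higher, at 0.22 ± 0.050 (adjusted p = 0.0151), and Socs1, a feedback inhibitor, was not called at -0.025 ± 0.055. Ifitm2, an antiviral membrane protein outside the list, had 40.6 and 39.9 CPM in the CD8 class against 161 and 172 in the CD4 class, and a difference of -2.07 ± 0.052 (adjusted p = 6.46e-08).

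The interferon response element, read as GAAA, any 2 bases, and GAAA, or the same on the other strand, occurred in the promoters of 9 of the 13 matched interferon-stimulated genes that were lower in CD8-only cells and in 3.44% of all promoters of the table. Of these 13 promoters, 1 held both this element and the RUNX letters, that of Gbp2. Members of the list that were not lower were not read for comparison. The list was made of genes known to respond to interferon, so the count of 9 carries no test of the difference between CD8 and CD4 cells. A match does not show a bound site. The promoter of Gbp2 (chr3:142620413-142620712, GRCm38.p6, plus strand) shows 1 match to the element, in capitals, which begins 59 bases before the start site, and its RUNX letters are left in lower case:
Gbp2: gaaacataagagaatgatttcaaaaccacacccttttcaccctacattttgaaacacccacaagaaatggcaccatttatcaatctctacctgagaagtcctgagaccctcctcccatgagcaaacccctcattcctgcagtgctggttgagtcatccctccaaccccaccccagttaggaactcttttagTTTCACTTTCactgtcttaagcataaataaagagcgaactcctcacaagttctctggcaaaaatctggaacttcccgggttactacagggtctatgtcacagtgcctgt

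Genes induced soon after TCR engagement were also lower in CD8-only cells in 15 of 25 tested members and higher in 4, with a median of -0.31. Atf3 and Egr1 had differences of -0.95 ± 0.062 (adjusted p = 1.83e-05) and -0.59 ± 0.068 (adjusted p = 0.000453), and Ier3 and Jund were higher at 0.62 ± 0.092 (adjusted p = 0.00182) and 0.46 ± 0.043 (adjusted p = 0.000132). Jun was the most abundant member not called, at -0.059 ± 0.054. Of 30 TCR chains and proximal signaling genes, 7 were higher and 11 lower. The phosphatases Ptpn22 and Ptpn6 moved in opposite directions, at 0.80 ± 0.047 (adjusted p = 1.01e-05) and -0.61 ± 0.051 (adjusted p = 7.19e-05).

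Cytokine receptors and homing genes gave further contrasts. Il2rb and Il7r, receptor chains for IL-2 or IL-15 and for IL-7, were higher in CD8-only cells at 0.59 ± 0.045 (adjusted p = 4.18e-05) and 0.78 ± 0.069 (adjusted p = 0.000111), while Il2rg, the chain they share, was not called at -0.012 ± 0.048. Of 22 tested genes of this list, 10 were higher and 4 lower. Gpr183, which guides cells to the border of B cell follicles, was lower at -1.60 ± 0.069 (adjusted p = 2.09e-06). Of 16 homing receptors, 6 were higher and 5 lower, and of 23 integrins and adhesion genes, 7 were higher and 8 lower. Bcl2, a survival factor, had 918 and 905 CPM in the CD8 class against 528 and 579 in the CD4 class, and Lef1, a factor of naive cells, was lower at -0.77 ± 0.044 (adjusted p = 8.46e-06). Of 22 quiescence and stem-like genes, 6 were higher and 9 lower, and of 19 Bcl-2 family and death receptor genes, 3 and 5. Of all genes 10.9% were higher and 12.1% lower, so the 3 higher members of the last list lie near that share.

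Genes known from regulatory T cells did not move as a block. Foxp3, their defining factor, had 44 and 20 UMIs in the CD4 class and 9 and 14 in the CD8 class, and was not tested between coreceptor-only cells. Of 17 tested members, 8 were higher and 5 lower in CD8-only cells. Ikzf2, Helios, was higher at 1.05 ± 0.14 (adjusted p = 0.00124), Ctla4 was higher at 0.46 ± 0.046 (adjusted p = 0.000212), and Izumo1r, folate receptor 4, was lower at -1.32 ± 0.052 (adjusted p = 1.19e-06). No stimulated WT cell carried a regulatory T cell label.

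Of the remaining genes among the 12 largest falls, Ckb, brain-type creatine kinase, had 73.1 and 85.3 CPM in the CD4 class and 17.4 and 21.7 CPM in the CD8 class. Ube2e2, a ubiquitin-conjugating enzyme, and Lrig1, which limits growth factor receptors, had coreceptor-only differences of -2.02 ± 0.084 (adjusted p = 1.67e-06) and -1.60 ± 0.081 (adjusted p = 4.56e-06). Dendritic cell and B cell genes were present at low levels: the dendritic list summed to 113 and 106 CPM in the CD4 class and 53.1 and 65.7 CPM in the CD8 class, and the B cell list to 101 and 27.8 against 53.7 and 50.0 CPM. Siglech was at 0, as was the myeloid marker Lyz2, and the part of these cells in the differences was not tested.

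Mitochondrially encoded genes were higher in CD8 cells over all cells, with fewer calls inside either range of mitochondrial share, a split that is made on the UMIs of these same genes and so narrows their differences by construction. The mitochondrial share of UMIs per cell was high in most stimulated cells, with a median of 15.9% and 14.9% in the CD4 class and 19.0% and 16.9% in the CD8 class. Cells under 10% made up 39.1% and 40.95% of the CD4 class and 24.3% and 29.3% of the CD8 class, and, with medians of 59711 to 64638 UMIs per cell, they gave 60.1% to 76.4% of each sum. The 13 mitochondrially encoded genes were higher in CD8-only cells in 12 members and lower in 0, with a median of 0.16. Within cells under 10% the count was 1 higher and 0 lower with a median of -0.00011, and within cells from 10% upward it was 4 higher and 2 lower with a median of -0.014.

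Nuclear genes of the ETC and ATP synthase gave calls of opposite direction in all cells and in cells of high mitochondrial share. Over all coreceptor-only cells, 19 of 74 were lower and 4 higher in CD8-only cells, with a median of -0.053, and Uqcrh, a complex III subunit, was at -0.29 ± 0.038 (adjusted p = 0.000989). Within cells from 10% mitochondrial UMIs upward, 32 were higher and 0 lower, with a median of 0.17, where 10.2% of all genes were higher and 9.83% lower. Within cells under 10%, 4 were higher and 6 lower, near or under the 7.11% and 8.7% of all genes. The difference between these strata was not tested, and the group from 10% upward was added after seeing the data. Sdha, the complex II subunit that is deleted in the KO mice of the series, had 86.8 and 85.4 CPM in the CD8 class against 81.2 and 80.0 in the CD4 class, and was not called over all coreceptor-only cells at 0.10 ± 0.052 (adjusted p = 0.214). It was higher in CD8-only cells from 10% upward, at 0.32 ± 0.079 (adjusted p = 0.00247), and not called under 10%, at -0.012 ± 0.067.

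**Figure D4:**
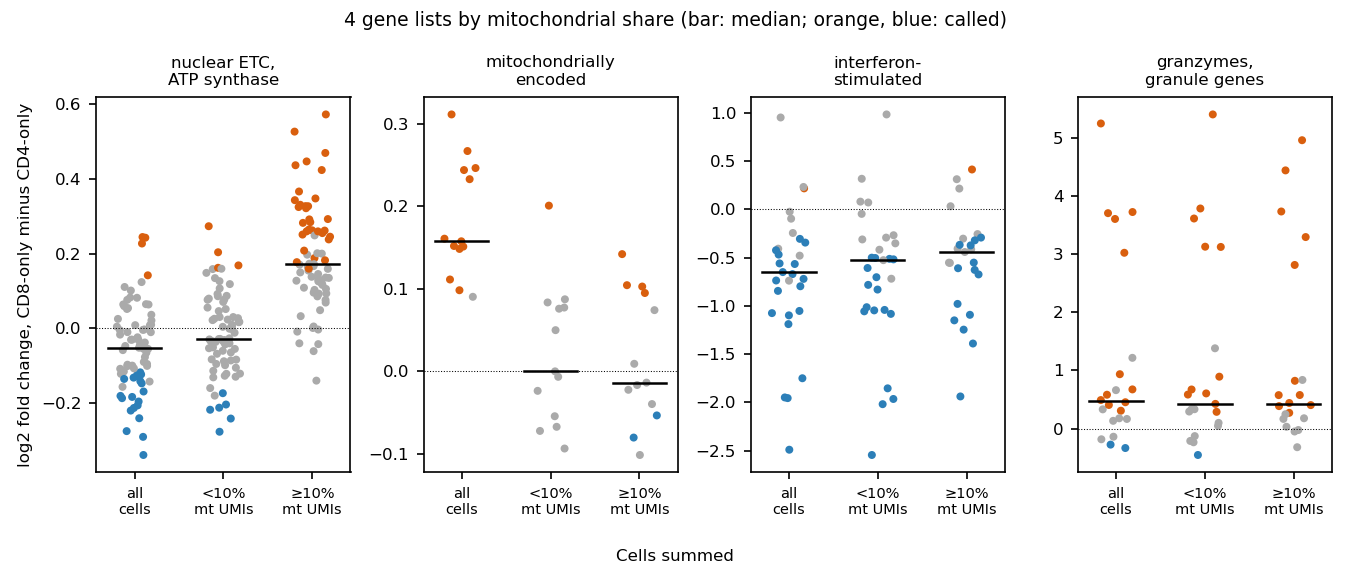
Log2 fold change of each list member between CD8-only and CD4-only cells (y axis, own scale per panel) in all cells, in cells under 10% mitochondrial UMIs, and in cells from 10% upward, with medians as black bars and called genes in orange (higher in CD8) or blue (higher in CD4). The nuclear ETC median moves from -0.053 to 0.17 from all cells to cells from 10% upward, whereas the medians of interferon-stimulated and granule genes keep their sign.

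Other metabolic and cell cycle lists are read against the 10.9% of all genes that were higher and the 12.1% that were lower in CD8-only cells. Glycolysis and glucose or lactate transport genes were lower in CD8-only cells in 11 of 24 members and higher in 2, with Aldoc at -0.84 ± 0.10 (adjusted p = 0.000458) and Pgk1 at -0.33 ± 0.048 (adjusted p = 0.00172). That list gave 6 higher and 3 lower in cells from 10% mitochondrial UMIs upward. Among coreceptor-only cells of that range, 10.2% of all genes were higher and 9.83% lower in CD8-only cells, and the change of the list was not tested. Amino acid and one-carbon genes were higher in 8 of 23 and lower in 3, with Slc7a5 and Slc3a2, the 2 chains of the LAT1 transporter, at 0.58 ± 0.051 (adjusted p = 0.000104) and 0.43 ± 0.043 (adjusted p = 0.00021). MYC, polyamine, and ribosome biogenesis genes were higher in 9 of 29 and lower in 4, although Myc was lower at -0.23 ± 0.051 (adjusted p = 0.0132), with a class difference of 0.017 in cells from 10% mitochondrial UMIs upward. TCA cycle genes, higher in 3 and lower in 3 of 25, were at the level of all genes. Hypoxia genes were higher in 3 and lower in 7 of 20, and sterol and fatty acid genes higher in 5 and lower in 9 of 30. S phase genes were higher in 6 and lower in 2 of 32, and G2M genes higher in 4 and lower in 1 of 30, with Top2a not called at 0.059 ± 0.042. Between the classes 4 members of each of these 2 lists were lower, so these small counts are not read as a trait of the lists. MHC class I genes were higher in 10 and lower in 5 of 22, with H2-Q6 at 0.90 ± 0.058 (adjusted p = 1.66e-05) and Psmb9, an immunoproteasome subunit, at -0.40 ± 0.047 (adjusted p = 0.000509).

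The classes also differed without stimulation. In a fit of the 4 WT libraries, 1232 genes (8.9% of 13835) were higher in the CD8 class and 1153 (8.33%) higher in the CD4 class of unstimulated cells. In that fit 994 genes were called in the same direction in both states (23.6% of the 4208 calls in stimulated and 41.7% of the 2385 in unstimulated cells), and 384 in opposite directions (9.13% and 16.1%). Klrk1, Xcl1, and Cd40lg had unstimulated differences of 3.86 ± 0.34, 4.59 ± 0.37, and -6.36 ± 0.20. The class difference itself changed with stimulation toward CD8 in 877 genes (6.34%) and toward CD4 in 1146 (8.28%), by the interaction of class and state. The unstimulated sums held 4170982 to 7278274 UMIs, fewer than the stimulated ones. Fewer genes were called without the first or without the second unstimulated library, which leaves 1 library on that side.

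Ifng had 20 and 165 UMIs in the CD4 class and 10 and 4 in the CD8 class of unstimulated cells, a difference of -3.06 ± 0.47 that rests on the second library, since the first stood at 3.14 CPM in the CD4 and 2.86 CPM in the CD8 class. The interaction was 7.71 ± 0.40 (adjusted p = 5.16e-10), and 4.80 without the second unstimulated library, which leaves 1 library on that side. Prf1 widened from 1.21 ± 0.14, with an interaction of 3.18 ± 0.18 (adjusted p = 1.4e-09). Gzmb, with 1 to 5 UMIs per unstimulated sum, stood at 0.74 ± 0.85 there, and its interaction of 2.53 ± 0.91 did not pass (adjusted p = 0.0746). Runx3 and Eomes narrowed, with interactions of -0.98 ± 0.10 (adjusted p = 1.93e-06) and -2.74 ± 0.46 (adjusted p = 0.000392). Tbx21 was higher in the CD8 class before stimulation, at 1.73 ± 0.21, and slightly lower after it. Gbp2 and Slamf6 were not called before stimulation, at 0.38 ± 0.15 and -0.10 ± 0.082, and were lower in the CD8 class after it.

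**Figure D5:**
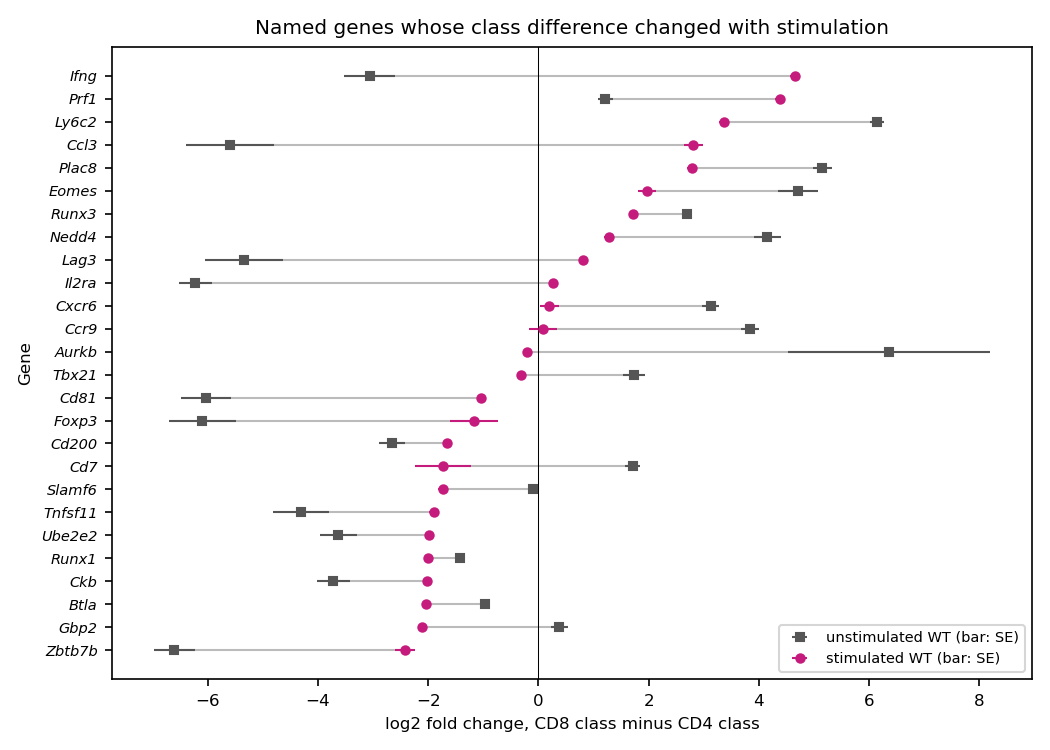
Log2 fold change between the CD8 and the CD4 class (x axis) in unstimulated (grey squares) and stimulated (pink circles) WT libraries. Bars, labelled SE, give the value after ± that is computed from the F of the test, which can fall below counting error. Shown are genes set by name, the 12 largest in each direction, and the 5 per direction picked for the interaction, where the class difference changed with stimulation. Ifng, Ccl3, Il2ra, and Lag3 cross from below to above 0, and Tbx21, Gbp2, Aurkb, and Cd7 cross the other way. Unstimulated values rest on at most 2 UMIs per sum in one class for Il2ra and Lag3, on 0 UMIs in the CD4 class for Aurkb, and on 1 library for Ccl3 and Ifng.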

How the data were processed

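The authors made 10x Genomics 3′ HT libraries of splenic T cells, processed reads with bcl2fastq and Cell Ranger (versions not given in the sources used here) on build mm10, and filtered and clustered cells in Seurat 4.2.0, removing stimulated cells above 8000 and unstimulated cells above 6000 detected genes and clusters without CD3 genes. The deposited values were raw UMI counts per gene and cell, not normalized, with the class, subset, and percent of mitochondrial UMIs per cell in a deposited table. These matched the matrix in all 12846 cells (percentages within 0.001). Classes were assigned by the authors per cluster from the ratio of Cd4 to Cd8a, not per cell. Free RNA and doublets were not removed here.

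UMIs were summed per library and class, or per library and coreceptor group. Genes were kept by filterByExpr (minimum count 10, minimum total 15), scaled with TMM, and tested with glmQLFit and glmQLFTest of edgeR 4.0.16 in R 4.3.3, with the library as a block, since both sums of a library came from 1 culture. The library differences of the CD4 and CD8 sums correlated at r = 0.31 over 9283 genes. Adjusted p values are Benjamini-Hochberg values over all genes tested, and under 0.05 was called. The interaction of class and state was fitted over 8 sums. In simulated counts 100% of 100 genes changed 1.5-fold were recovered in the class fit of 13828 genes, and 74% in the interaction fit of 13337 genes. The changed genes had a mean of at least 20 CPM, and both sums of a simulated library shared the same library effect, which the block removes. In the data these effects were shared only in part (r = 0.31), so the recovered shares do not give the power of the real fits. Alternatives used DESeq2 1.42.0 and limma 3.58.1. Shares of cells were computed with Python 3.11.15, before and after thinning each cell to 5000 UMIs with a fixed seed; 2 to 20 cells per sum were shallower and left out. The class sums of stimulated cells held 20917753 to 29087409 UMIs.

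Genes named were 15 set by name, the 12 with the largest difference in each direction called in both fits at a mean of at least 20 CPM with CD8 and CD4 sums apart, up to 2 members per list in each direction with the most abundant uncalled one, and 5 per direction for the interaction; a few genes that this rule names are not reported here. The comparison, the genes, and the 28 gene lists were chosen with earlier results of these data known. Promoters came from RefSeq (GRCm38.p6, the same assembly as mm10) and were matched by symbol.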

Additional observations from a re-analysis of the deposited data

Results flagged for a closer look

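The class difference changed with stimulation in 26 genes, by the interaction of class and state in edgeR's quasi-likelihood test (adjusted p under 0.05). They were counted among the genes set by name, the 12 largest in each direction, and the 5 per direction picked for this interaction. The last group was called by choice, and other members of the gene lists were not counted. Of all genes, 6.34% changed toward CD8 and 8.28% toward CD4. Values of the 26 genes are log2, stimulated minus unstimulated. Toward CD8 they were Ccl3 8.40, Ifng 7.71, Il2ra 6.48, Lag3 6.15, Cd81 4.99, Foxp3 4.92, Zbtb7b 4.18, Prf1 3.18, Tnfsf11 2.41, Ckb 1.69, Ube2e2 1.65, and Cd200 1.00. Toward CD4 they were Aurkb -6.57, Ccr9 -3.75, Cd7 -3.43, Cxcr6 -2.92, Nedd4 -2.88, Ly6c2 -2.78, Eomes -2.74, Gbp2 -2.50, Plac8 -2.37, Tbx21 -2.05, Slamf6 -1.63, Btla -1.06, Runx3 -0.98, and Runx1 -0.58.

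Several of these rest on few UMIs in unstimulated cells, where the fitted fold depends on the prior count and is no bound. Unstimulated sums of the CD8 class held 3 and 0 UMIs of Zbtb7b, 0 and 2 of Foxp3, 1 and 2 of Il2ra, 0 and 1 of Lag3, 1 and 1 of Cd81, and 3 and 0 of Tnfsf11. Aurkb had 0 UMIs in both unstimulated CD4 sums and 2 and 3 in the CD8 sums. Ccl3 had 0 and 375 UMIs in the unstimulated CD4 sums. Without the second unstimulated library, which leaves 1 library on that side, its interaction was -4.26, against 8.40 with it.

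In stimulated cells Ccr9 and Cxcr6, which home cells to the gut and to inflamed tissue, had class differences of 0.10 ± 0.33 and 0.20 ± 0.19, after 3.84 ± 0.17 and 3.12 ± 0.16 in unstimulated cells. The 2 unstimulated CD8 sums held 289 and 315 UMIs of Ccr9 and 273 and 338 of Cxcr6.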

How the results depend on the processing

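Between the classes 4054 genes were called. Other fits called 2440 genes without the replicate block, 1417 by DESeq2, 2612 in cells under 10% mitochondrial UMIs, 2507 in the Tem subsets, and 2385 with cells thinned to 5000 UMIs, and 753 of the 4054 had a fold of at least 2. Of the 4054, these fits called 2440, 1415, 2208, 2187, and 2080 in the same direction. The Tcm subsets gave 2981 calls and cells from 10% mitochondrial UMIs upward gave 2783. These 2 fits kept the fewest of the 4054, 1997 and 1956. Tcm cells made up 62.9% and 61.4% of the CD4 class and 76.8% and 71.1% of the CD8 class in libraries 1 and 2. The part of this subset make-up in the class differences was not tested. Between coreceptor-only cells 3129 genes were called, against 1833 without the replicate block, 1019 by DESeq2, 1945 under 10%, and 1657 with thinned cells, and 692 of the 3129 had a fold of at least 2. The 2023 genes whose class difference changed with stimulation became 1305 without the replicate block, 856 by DESeq2, 1229 in coreceptor-only cells, and 3170 without composition normalization, which moved the median interaction of all genes from 0.010 to 0.24. That setting split the 3170 calls into 2610 toward CD8 and 560 toward CD4, the 4182 class calls into 2673 higher in CD8 and 1509 higher in CD4, and the 3009 coreceptor calls into 1743 and 1266. Leaving out 1 library gave 3153 to 3222 class calls, 2415 to 2526 coreceptor calls, and 908 to 1832 interaction calls, the lowest without the second unstimulated library. Thinning of cells, the cells from 10% mitochondrial UMIs upward, and Il2 without 1 cell were chosen after seeing the data.

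Class differences of named genes that changed sign did so mostly with the cells summed. Several of these genes are named only here, and their value in the main class fit, which had the opposite sign, is not given. In cells from 10% mitochondrial UMIs upward the reversed values were Srgn 0.040, Tgfb1 0.20, Cox8a 0.18, Pgam1 0.20, Myc 0.017, Gins2 0.12, Ube2c 0.13, Psme2 0.037, and Bax 0.33. In the Tcm subsets they were Tgfb1 0.21, Ptprc -0.099, Uqcrh 0.029, Cox8a 0.19, Sdhb 0.25, Pgam1 0.19, Gins2 0.14, Dut 0.15, Ube2c 0.14, Psme2 0.061, and Bax 0.33. In cells under 10% they were Ltb -0.33, Tnfrsf18 -0.16, Ptprc -0.16, and H2-K1 -0.14, in the Tem subsets Ltb -0.32, with thinned cells Eno3 -0.094, and with limma on mean log values Tgfb1 0.044 and Bax 0.048. The interaction of Cd7 was 0.10 in coreceptor-only cells, and that of Ccl3 ran from -4.26 to 9.75 when 1 library was left out. The causes were not tested. Depth limits the unstimulated side most, where the smallest sum held 4170982 UMIs.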
